A study of Mus musculus with 16 samples.

Results

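Malat1, Neat1, Meg3, Miat, Rian, Mirg and Snhg11 are long noncoding RNAs (lncRNAs), transcripts that act as RNA or as hosts of small RNAs and are not translated into large proteins. They were described across inner and outer hair cells (IHCs and OHCs), the sensory cells of the cochlea, in aging mice. The 7 genes were taken by name from the deposited expression table, which lists 49585 genes, and all 7 were found in it. RNA-seq was available for 16 libraries, 4 in each labelled group, namely 26-month OHCs (26m OHC), 9-month OHCs (9m OHC), 26-month IHCs (26m IHC) and 9-month IHCs (9m IHC). All mice were of the CBA strain (CBA/J in the study's text), carried no engineered allele and received no treatment, and each sample pooled hair cells of males and females, which were picked by pipette and told apart by their shape. Values are RPKM (reads scaled to the length of the gene and to the mapped reads of the library), deposited by the authors.

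Each lncRNA has a distinct place in the nucleus or genome. Malat1 gathers in nuclear speckles, the stores of splicing factors, and Neat1 is the scaffold on which paraspeckles are built. Miat, also named Gomafu, forms nuclear spots of its own in neurons and binds splicing factors. Meg3, Rian and Mirg lie in a row in the imprinted Dlk1-Dio3 domain, where they are transcribed from the maternal chromosome while the protein-coding genes Dlk1, Rtl1 and Dio3 are expressed from the paternal one. Rian hosts small nucleolar RNAs (snoRNAs) and Mirg hosts microRNAs (miRNAs), and the RNAs of this domain are well known from brain. Snhg11 is a snoRNA host gene.

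The genes sit on 4 chromosomes of the mouse genome GRCm38. Malat1 (ENSMUSG00000092341, chr19:5795690-5802672, minus strand) and Neat1 (ENSMUSG00000092274, chr19:5824708-5845478, minus strand) are neighbours that lie 22036 bases apart. Meg3 (ENSMUSG00000021268, chr12:109541001-109571726), Rian (ENSMUSG00000097451, chr12:109603940-109661716) and Mirg (ENSMUSG00000097391, chr12:109729764-109749460) share the plus strand. Miat (ENSMUSG00000097767) lies at chr5:112213228-112229395 on the minus strand and Snhg11 (ENSMUSG00000044349) at chr2:158375638-158386145 on the plus strand. GENCODE lists Snhg11 as protein-coding, Rian as a processed transcript and the other 5 as lincRNA.

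The microRNAs that lie inside Mirg are shown because they are its best known product. RefSeq (GRCm38.p6) places 26 mature miRNAs with 25 different seeds inside the bounds of Mirg, 6 inside Rian and 3 inside Meg3, on the same strand as the host. The seed, bases 2 to 8, which pairs with target RNAs, is in capitals. The first pair below shares its seed, and the other 4 are single examples with 4 different seeds.
mmu-miR-453 (chr12:109735669-109735692): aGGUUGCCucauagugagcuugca
mmu-miR-496a-5p (chr12:109739132-109739152): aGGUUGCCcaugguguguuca
mmu-miR-134-5p (chr12:109734145-109734166): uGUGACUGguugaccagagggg
mmu-miR-154-3p (chr12:109738474-109738495): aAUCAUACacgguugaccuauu
mmu-miR-369-3p (chr12:109743466-109743486): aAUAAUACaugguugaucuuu
mmu-miR-410-3p (chr12:109743764-109743784): aAUAUAACacagauggccugu
None of the 66 miRNA and 23 snoRNA genes annotated from Meg3 to Mirg had a value above 0 in any library, but neither had any of the 2202 miRNA and 1507 snoRNA genes of the whole table, so the table does not measure small RNAs.

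Promoters of the 3 neighbours are shown because their transcripts are compared below. Each window runs from 250 bases before to 50 after the start in RefSeq (GRCm38.p6), and capitals mark, on either strand, the core letters of the cAMP response element (TGACGT), of the box bound by TBP (TATAAA) and of the box bound by NF-Y (CCAAT). Meg3 has a second start with none of these letters.
Meg3 (chr12:109540746-109541045, plus): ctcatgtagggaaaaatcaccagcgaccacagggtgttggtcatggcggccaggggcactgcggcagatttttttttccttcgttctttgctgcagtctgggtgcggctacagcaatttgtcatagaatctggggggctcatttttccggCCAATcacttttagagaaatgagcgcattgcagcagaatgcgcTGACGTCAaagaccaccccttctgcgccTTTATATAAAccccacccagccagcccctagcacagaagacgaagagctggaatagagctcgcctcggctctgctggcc
Rian (chr12:109603695-109603994, plus): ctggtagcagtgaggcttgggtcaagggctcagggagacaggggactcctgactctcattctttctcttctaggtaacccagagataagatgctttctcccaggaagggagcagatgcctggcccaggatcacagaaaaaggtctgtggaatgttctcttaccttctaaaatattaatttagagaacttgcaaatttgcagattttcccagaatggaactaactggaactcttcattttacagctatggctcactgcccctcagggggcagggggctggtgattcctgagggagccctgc
Mirg (chr12:109734731-109735030, plus): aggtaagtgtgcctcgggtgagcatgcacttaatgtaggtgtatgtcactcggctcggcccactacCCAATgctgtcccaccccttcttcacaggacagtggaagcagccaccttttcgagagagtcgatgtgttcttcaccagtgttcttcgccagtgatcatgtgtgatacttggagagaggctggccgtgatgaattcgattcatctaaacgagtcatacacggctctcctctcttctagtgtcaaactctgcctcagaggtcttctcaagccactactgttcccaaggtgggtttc
TGACGT occurred in 7.51%, TATAAA in 13.6% and CCAAT in 37.4% of the 32851 promoters of the same length, on either strand. The RefSeq start of Mirg lies inside the GENCODE model. The first Meg3 window holds all 3 of them, with TGACGT and its reverse overlapping at 57 and 55 bases before the start and TATAAA and its reverse overlapping at 25 and 29 bases before it. The Rian window holds none and the Mirg window 1, CCAAT. The letters GGGCGG (35.7% of promoters) are in none of the 3 windows, and the Miat promoter holds them once.

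Sequences within a pair of the transcripts are also shown. In Miat, the branch-point-like letters TACTAAC, through which splicing factor 1 (SF1) is known to bind it, occur 6 times in its longest transcript of 9163 bases, in 2 clusters of its last exon, and they are in capitals here.
Miat cluster 1 (chr5:112217309-112217460, minus): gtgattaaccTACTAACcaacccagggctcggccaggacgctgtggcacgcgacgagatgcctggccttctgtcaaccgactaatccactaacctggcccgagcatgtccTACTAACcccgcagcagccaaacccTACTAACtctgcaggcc
Miat cluster 2 (chr5:112216752-112216812, minus): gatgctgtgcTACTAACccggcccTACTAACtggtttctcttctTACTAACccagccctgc
Among the longest transcripts of 55450 genes, 4.56% hold TACTAAC on the transcript strand and 3, Miat among them, hold it 6 times or more. Neat1 holds it once and the other 5 lncRNAs not at all. In Malat1, the mature RNA ends at a tract of A encoded in the genome, which folds into a triple helix with stretches of U upstream, in place of a poly(A) tail. Its longest run of A, 12 bases, lies 298 bases before the annotated end of the transcript and is in capitals here.
Malat1 (chr19:5795968-5796099, minus): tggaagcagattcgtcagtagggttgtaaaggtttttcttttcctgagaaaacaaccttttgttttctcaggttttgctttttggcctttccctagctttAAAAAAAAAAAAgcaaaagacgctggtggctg
A run of A that long or longer is in 5.6% of the longest transcripts. The longest runs were 16 bases in Meg3, 15 in Rian, 8 in Snhg11, 7 in Neat1, 5 in Mirg and 4 in Miat. The libraries were made with a kit that primes cDNA from runs of A, and the part of these runs in the levels was not tested.

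The depth of the libraries, recovered from the steps of the RPKM values, was 19990435 to 21226800 mapped reads in libraries labelled 26m OHC, 19666190 to 21030345 in 9m OHC, 23161311 to 25617032 in 26m IHC and 28826644 to 31243721 in 9m IHC. Within a group, library 1 could not be told from 2, nor 3 from 4, beyond sampling noise (mean chi-square per gene 0.993 to 1.10), whereas the other pairs differed (2.67 to 3.39). The 2 libraries of such a pair were therefore replaced by their mean, which leaves n = 2 per group, and p-values measure only the spread between these averages, which may be technical. To be called, a difference needed an adjusted p no higher than 0.1 (limma on log2 of RPKM + 0.1, Benjamini-Hochberg over all genes tested) and a log2 fold change no smaller in size than 1. Genes whose mean was under 0.1 RPKM in every group compared were not tested. Small changes on this scale can pass the p threshold and still fall short of the fold threshold.

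The labels of some libraries go against the defining genes of their cells. The summed level of 10 OHC markers was 1203 to 1218 RPKM in libraries labelled 26m OHC, 108.5 to 112 in 9m OHC, 15310 to 15510 in 26m IHC and 52.9 to 56.8 in 9m IHC. Slc26a5, the OHC motor protein prestin, averaged 1.85 RPKM in 26m OHC, 0.17 in 9m OHC, 816 in 26m IHC and 1.07 in 9m IHC. The 9 IHC markers summed to 629.4 to 657.3 RPKM in 26m OHC, 2036 to 2082 in 9m OHC, 1012 to 1039 in 26m IHC and 1670 to 1717 in 9m IHC. They did not all have the same order. Cabp2 was a large part of each sum, at 464.1, 1391, 547.7 and 910.5 RPKM in these groups. In 26m IHC, Cabp2 and Kcnj13 made up most of the sum, while Slc17a8, Tbx2 and Slc7a14 averaged 2.04, 0.921 and 0.0742 RPKM. Otof, which serves transmitter release, averaged 76.8, 138.4, 23.5 and 349.6 RPKM in the order of the groups just given, and Kcnj13, a potassium channel gene, 5.90, 2.62, 449.9 and 2.09 RPKM. The OHC markers are thus highest in libraries labelled 26m IHC and low in those labelled 9m OHC, and groups are called by their labels throughout. If the labels 26m IHC and 9m OHC were exchanged, 9m OHC vs 9m IHC would be the age comparison of IHCs. Likewise, 26m OHC vs 26m IHC would be that of OHCs. Then 26m OHC vs 9m OHC would compare OHCs with IHCs at 26 months, and 26m IHC vs 9m IHC at 9 months. The interaction of age and cell type would keep its value. All 4 comparisons are therefore given, and 26m OHC vs 9m IHC uses neither doubted group but differs in age and cell type at once.

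**Figure D1:**
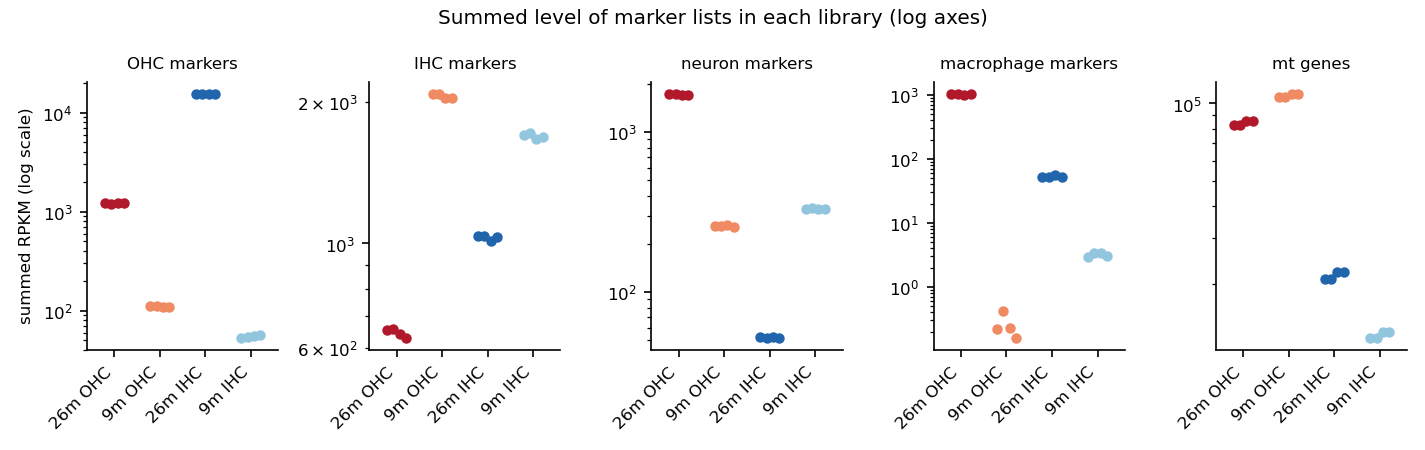
Summed RPKM (log axes) of marker lists in each library, with the groups in the order 26m OHC, 9m OHC, 26m IHC and 9m IHC along the x axis and each point 1 library. OHC markers are highest in libraries labelled 26m IHC (15310 to 15510 RPKM), neuron markers (1701 to 1735) and macrophage markers (1013 to 1045) in 26m OHC, and genes of the mitochondrial genome (mt genes) are high in both OHC-labelled groups.

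Markers of other cells also differed between the groups. The 18 neuron markers summed to 1701 to 1735 RPKM in 26m OHC, 255.9 to 261 in 9m OHC, 51.7 to 52.4 in 26m IHC and 328.4 to 335.6 in 9m IHC, with 1, 4, 0 and 1 of them at 0 in every library of these groups, among them Gap43 in both OHC-labelled groups. The 12 macrophage markers summed to 1013 to 1045, 0.158 to 0.424, 52.0 to 55.3 and 2.95 to 3.44 RPKM in the same order, and 9 of them were at 0 in 9m OHC. Supporting cell markers summed to 1363 to 1401 RPKM in 26m OHC, 683.6 to 708.3 in 9m OHC, 554.8 to 566.9 in 26m IHC and 1823 to 1848 in 9m IHC. Markers of Schwann cells and glia and of fibrocytes and stria were highest in 26m OHC, at 309.5 to 318.4 and 554.9 to 561.8 RPKM. Red cell and granulocyte markers were highest in 26m IHC instead, at 5920 to 6149 and 429.2 to 444.3 RPKM, and endothelial markers summed to no more than 1.62 RPKM in any library. Because the samples are bulk RNA, more cells of a type and more RNA per cell cannot be told apart. The part of these cells in the levels of the lncRNAs was not tested.

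The 7 lncRNAs differed in level by orders of magnitude, and only some are abundant in hair cells. Malat1 ranked 7 to 23 among all genes in the 4 groups. Mirg was at 0 RPKM in every library labelled 9m OHC and 9m IHC, and Rian stayed at 0.0669 RPKM or less in the IHC-labelled libraries. The lncRNAs that were called in any of the 4 comparisons were called higher in the libraries labelled 26 months, or in those labelled OHC, and none was called lower. In 26m OHC vs 9m OHC, 6 of the 7 tested were called higher and 0 lower, where 49.6% of 14843 genes were called, 35.6% higher. In 26m IHC vs 9m IHC, 2 of the 5 tested were called higher and 0 lower, where 32.7% of 15711 genes were called, 14.1% higher. In 9m OHC vs 9m IHC, 4 of 6 were called higher and 0 lower, against 65.8% of 15335 genes called, 17.3% higher and 48.5% lower, and in 26m OHC vs 26m IHC 6 of 7 were called higher and 0 lower, against 63.5% of 16043 genes called, 29% higher and 34.4% lower. The median log2 fold change of the lncRNAs tested was 2.48, -0.39, 2.05 and 2.37 in these 4 comparisons, and that of all genes tested 0.45, -0.09, -0.93 and -0.20. In 26m OHC vs 9m IHC, 6 of 7 were called higher and 0 lower, where 61.9% of 15884 genes were called, 26.3% higher. In 9m OHC vs 26m IHC, the 2 doubted groups, 3 of 6 were called higher (Malat1, Meg3 and Rian) and 1 lower (Miat, -1.31), where 67.6% of 15505 genes were called, 21.4% higher and 46.2% lower. Mirg passed the filter through 26m OHC alone. Against a group labelled IHC, Rian passed it through the OHC-labelled group alone. In those comparisons their direction was set in advance. Comparisons with a group in common share its libraries.

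**Figure D2:**
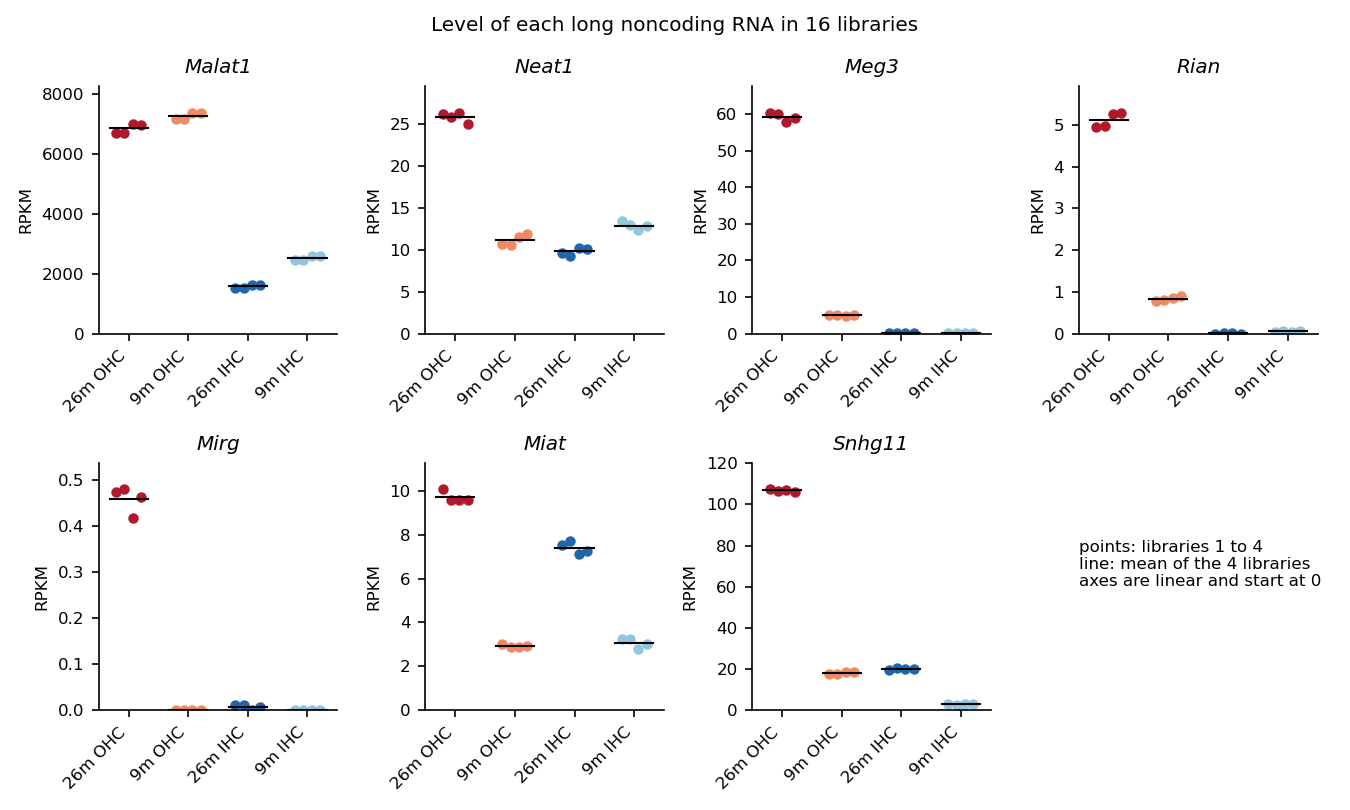
RPKM (linear axes from 0) of each lncRNA in the 4 libraries of 26m OHC, 9m OHC, 26m IHC and 9m IHC, with points for libraries 1 to 4 and a line at their mean. Malat1 is high in both OHC-labelled groups, Meg3, Rian, Mirg, Neat1 and Snhg11 peak in 26m OHC, and Miat is higher in both groups labelled 26 months.

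Malat1, the speckle RNA, was by far the most abundant of the 7. It measured 6709, 6714, 7008 and 6972 RPKM in the 26m OHC libraries and 7160, 7148, 7381 and 7370 RPKM in those labelled 9m OHC. It measured 1530, 1528, 1626 and 1633 RPKM in 26m IHC and 2446, 2455, 2596 and 2609 RPKM in 9m IHC. Both OHC-labelled groups lie above both IHC-labelled groups with no overlap. The difference was called at 9 months (log2 fold change 1.52 ± 0.0383 SE, adjusted p = 2.26e-06 in limma) and at 26 months (2.12 ± 0.0421, adjusted p = 1.19e-06). Between ages the fold threshold was not reached, with -0.08 ± 0.0290 in 26m OHC vs 9m OHC (adjusted p = 0.0437) and -0.68 ± 0.0473 in 26m IHC vs 9m IHC (adjusted p = 7.76e-05, limma). If the labels 26m IHC and 9m OHC were exchanged, the calls of Malat1 at 9 and 26 months would compare ages within a cell type. In order of level the groups were 9m OHC, 26m OHC, 9m IHC and 26m IHC, and of the neighbours in this order only 26m OHC and 9m IHC differed past both thresholds (1.44, adjusted p = 3.87e-06). The call at 9 months ended under quantile normalization (-0.04, adjusted p = 0.26), which sets values by rank alone, and Malat1 ranked 11 in 9m OHC and 10 in 9m IHC.

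Malat1 took 1.23% to 1.29% of mapped reads in 26m OHC, 1.31% to 1.35% in 9m OHC, 0.280% to 0.299% in 26m IHC and 0.449% to 0.478% in 9m IHC. These shares are least values, because the RPKM of Malat1 gives whole reads with a gene length of 1834 bases or a multiple of it, which matches no annotated length (its longest transcript has 6983 bases). The 13 protein-coding genes of the mitochondrial genome were high in the same groups. Their reads made up 7.48% to 7.73% of mapped reads in 26m OHC, 9.27% to 9.56% in 9m OHC, 1.94% to 2.05% in 26m IHC and 1.16% to 1.22% in 9m IHC, and all 13 were called higher in OHC- than in IHC-labelled libraries at both ages. When the table was rescaled without them, Malat1 differed by 1.65 (9 months) and 2.20 (26 months) on the log2 scale. The sources used here do not give strand information for the reads, so reads of a gene and of an overlapping gene on the other strand cannot be told apart. Such genes overlap Meg3 (Gm26906, listed at 0 RPKM in every group) and Miat (Gm26953, which averaged 0, 0, 0.0671 and 0.0129 RPKM in 26m OHC, 9m OHC, 26m IHC and 9m IHC).

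Neat1 was much lower than its neighbour on the chromosome and followed another pattern. It measured 26.2, 25.8, 26.4 and 24.96 RPKM in 26m OHC and 10.7, 10.6, 11.5 and 11.9 RPKM in 9m OHC. In the IHC-labelled groups it measured 9.60, 9.30, 10.3 and 10.1 RPKM at 26 months and 13.4, 13.0, 12.4 and 12.8 RPKM at 9 months. The 26m OHC libraries stood above all the others, and the other 3 groups lay close together. Neat1 was called higher in 26m OHC vs 9m OHC (1.20 ± 0.0530, adjusted p = 3.01e-05) and in 26m OHC vs 26m IHC (1.39 ± 0.0440, adjusted p = 4.67e-06, limma). The first of these fell below the fold threshold under median ratio scaling (0.80) and quantile normalization (0.93). It was not called in 26m IHC vs 9m IHC (-0.39 ± 0.0482) or in 9m OHC vs 9m IHC (-0.20 ± 0.0574, which turned to 0.52 and 0.57 under those scalings). No neighbours in its order of levels (26m OHC, 9m IHC, 9m OHC, 26m IHC) differed past the fold threshold, the first step being 0.999 (adjusted p = 6.46e-06).

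The RPKM of Neat1 does not give whole reads with the 20771 bases of the long form that builds paraspeckles. The smallest of 13 lengths that do is 3004 bases, and the level says nothing of which form is present. Of 18 paraspeckle proteins, 3 were called higher and 1 lower in 26m OHC vs 9m OHC (median log2 fold change 0.23, against 0.45 for all genes). The 3 were Nono (1.14), Rbm14 (2.47) and Cpsf7 (1.27), of which Nono and Rbm14 are needed for paraspeckles to form, and the 1 was Taf15 (-2.56). In 26m IHC vs 9m IHC 0 were called higher and 1 lower, the splicing regulator Hnrnpa1 (-1.30). In both comparisons of OHC- with IHC-labelled libraries 4 were called higher and 6 lower. Of 18 nuclear speckle proteins, the partners of Malat1, 2 were called higher in 26m OHC vs 9m OHC (Srsf6, 1.77, and Srrm1, 1.01) and 0 lower, and 0 in either direction in 26m IHC vs 9m IHC. In 9m OHC vs 9m IHC, 2 of these proteins were called higher and 5 lower, and in 26m OHC vs 26m IHC 2 higher and 4 lower. Of all genes tested, 17.3% were called higher and 48.5% lower in the first, and 29% and 34.4% in the second.

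Meg3, the first gene of the row, spanned a wide range of levels. It measured 60.4, 60.1, 57.8 and 58.9 RPKM in 26m OHC and 4.997, 5.06, 4.95 and 5.05 RPKM in 9m OHC. In 26m IHC it measured 0.113, 0.166, 0.1504 and 0.0975 RPKM and in 9m IHC 0.290, 0.304, 0.305 and 0.304 RPKM. No library of one group overlapped with another group, and the order was 26m OHC, 9m OHC, 9m IHC and 26m IHC. Meg3 was called higher in 26m OHC vs 9m OHC (3.54 ± 0.0291, adjusted p = 2.04e-06), in 9m OHC vs 9m IHC (3.67 ± 0.0533, adjusted p = 6.61e-07) and in 26m OHC vs 26m IHC (8.0016 ± 0.0539, adjusted p = 2.76e-07, limma). The step from 9m IHC to 26m IHC was the only one between neighbours that was not called (-0.79 ± 0.104, adjusted p = 0.000998), and with a pseudocount of 0.01 in place of 0.1 it was -1.13 and called lower. In reads, Meg3 had 20891 to 23079 per library in 26m OHC, 1760 to 1926 in 9m OHC, 41 to 77 in 26m IHC and 159 to 172 in 9m IHC. The ratio of its rate of reads in 26m OHC over 26m IHC was 448.5 (95% exact interval 394.4 to 512.2, for counting error only).

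Rian, the snoRNA host downstream of Meg3, was less abundant than Meg3 per length and kept the order of Meg3 in all 4 groups. It measured 4.96, 4.98, 5.26 and 5.29 RPKM in 26m OHC and 0.771, 0.799, 0.846 and 0.900 RPKM in 9m OHC. In 26m IHC it had only 1, 3, 2 and 1 reads, at most 0.0103 RPKM, and in 9m IHC 13, 23, 17 and 22 reads, at most 0.0669 RPKM. Again no 2 groups overlapped. Rian was called higher in 26m OHC vs 9m OHC (2.49 ± 0.0702, adjusted p = 8.12e-06), in 9m OHC vs 9m IHC (2.58 ± 0.0866, adjusted p = 5.67e-06; 0.79 with a pseudocount of 1, not called) and in 26m OHC vs 26m IHC (5.62 ± 0.0727, adjusted p = 4.94e-07, limma). These fold changes are compressed by the pseudocount wherever a group is near 0. By reads alone the ratio was 6.18 (95% exact interval 5.73 to 6.68) in 26m OHC over 9m OHC, 15.04 (11.9 to 19.3) in 9m OHC over 9m IHC and 809.2 (392.4 to 2014) in 26m OHC over 26m IHC. Rian was too low for the test in 26m IHC vs 9m IHC, where 7 reads faced 75 (ratio 0.115, interval 0.0447 to 0.249).

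Mirg, the miRNA host at the far end of the row, was seen almost only in 26m OHC. It had 64, 66, 54 and 60 reads there, or 0.472, 0.480, 0.417 and 0.462 RPKM, and 0 reads in all 4 libraries labelled 9m OHC. In 26m IHC it had 2, 2, 0 and 1 reads and in 9m IHC 0 reads in all 4 libraries. With 0 reads in a group, the limit is 3 reads over the 4 libraries, or 0.00568 RPKM in 9m OHC and 0.00386 RPKM in 9m IHC. Against these limits Mirg was at least 80.7-fold higher in 26m OHC than in 9m OHC and at least 118.7-fold higher than in 9m IHC. Over 26m IHC the ratio was 57.9 (95% exact interval 24.5 to 179.8). Mirg was called higher in 26m OHC vs 9m OHC (2.48 ± 0.0739, adjusted p = 9.44e-06) and in 26m OHC vs 26m IHC (2.37 ± 0.0959, adjusted p = 1.06e-05, limma), values that are no bound on the ratio because they depend on the pseudocount. With a pseudocount of 1 they were 0.54 and 0.53 and not called.

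The row of noncoding genes was thus transcribed in 26m OHC libraries while its protein-coding partners were not seen. Dlk1, a Notch ligand-like protein, and Dio3, the deiodinase that inactivates thyroid hormone, were listed at 0 RPKM in every group, and Rtl1, a retrotransposon-derived protein of placenta and muscle, at 0.00126 RPKM in 9m IHC and at 0 in the others. Begain, a synaptic protein gene at the edge of the domain, averaged 0.00567, 0, 0 and 0.121 RPKM in 26m OHC, 9m OHC, 26m IHC and 9m IHC. Between Rian and Mirg lies B830012L14Rik, a lincRNA on the same strand (chr12:109695586-109702587), which was picked after its values were seen. It averaged 3.601, 0.29, 0 and 0 RPKM in the same order, and was called higher in 26m OHC vs 9m OHC (3.27 ± 0.180, adjusted p = 6.37e-05) and in 9m OHC vs 9m IHC (1.94 ± 0.183, adjusted p = 0.000291, limma), the second a value that rests on the pseudocount. Among these noncoding genes of the plus strand, the levels in 26m OHC fell in genome order. They were 59.3 RPKM for Meg3, 5.12 for Rian, 3.601 for B830012L14Rik and 0.458 for Mirg. Gm26945, another lincRNA on that strand, lies within the bounds of Rian and was listed at 0 RPKM in every group. The reads of Rian and Mirg were recovered with the smallest length that gives whole reads (11365 and 6484 bases), which equals the exons of their transcripts with more than 1 exon. For Rian 3 lengths and for Mirg 2 would do so, and a multiple would scale the reads and narrow the intervals.

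**Figure D3:**
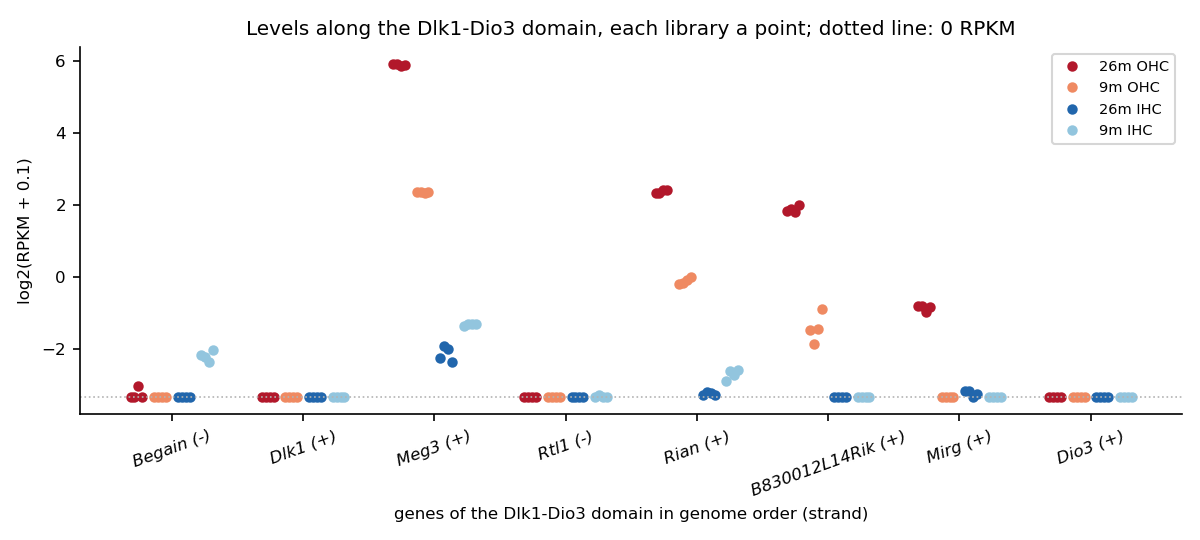
Level of the genes of the Dlk1-Dio3 domain on log2(RPKM + 0.1), in genome order with their strand, each point 1 library and colours for 26m OHC, 9m OHC, 26m IHC and 9m IHC; the dotted line marks 0 RPKM. Meg3, Rian, B830012L14Rik and Mirg are highest in 26m OHC, while Dlk1, Rtl1 and Dio3 lie at or near 0 in all groups.

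The 3 genes of the domain were called higher in 26m OHC vs 9m OHC. So were most markers of neurons, of OHCs and of fibrocytes and stria. Of all genes tested, 35.6% were called higher there, 17.3% in 9m OHC vs 9m IHC and 29% in 26m OHC vs 26m IHC. In 26m OHC vs 9m OHC 16 of 16 neuron markers tested were called higher, with a median log2 fold change of 2.97, and in 26m OHC vs 26m IHC 16 of 17, with a median of 5.48. In 9m OHC vs 9m IHC, where Meg3 and Rian were called higher, 4 of 17 neuron markers were called higher and 5 lower (median -0.39). In 26m OHC vs 9m OHC, 7 of 11 markers of fibrocytes and stria were called higher and 3 lower. Of supporting cell markers 4 of 12 were called higher and 1 lower, and of Schwann cell and glia markers 2 of 7 higher and 2 lower. Neither list exceeded the share of all genes called higher. Of the general hair cell markers 0 of 9 were called higher and 2 lower. Of the OHC markers 7 of 10 were called higher and 1 lower (median 2.86), and of the IHC markers 2 of 8 higher and 4 lower. In 26m OHC vs 26m IHC, 0 of the 10 OHC markers were called higher and 10 lower. The part of these cells in the levels was not tested. Macrophage markers were called higher in 11 of 11 tested in 26m OHC vs 9m OHC. In 9m OHC vs 9m IHC 0 of 5 were called higher and 5 lower. Only 1 of the 12 macrophage markers was above 0.1 RPKM in 9m OHC. The others tested passed the filter through the other group alone, so their direction was set in advance. Of the neuron markers, Prph and Rbfox3 were at 0 in 9m OHC and entered 26m OHC vs 9m OHC in the same way. So did Prph, Rbfox3, Thy1 and Vsnl1, each under 0.1 RPKM in 26m IHC, in 26m OHC vs 26m IHC. In 9m OHC vs 9m IHC, Gap43, Rbfox3 and Syt1 were at 0 in 9m OHC, so they could only be called lower.

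Other imprinted genes gave a partly similar picture. Of 18 imprinted protein-coding genes, Dlk1 among them, 14 could be tested in 26m OHC vs 9m OHC, where 8 were called higher and 1 lower (median log2 fold change 1.57, against 0.45 for all genes). The most abundant was Snrpn, a small nuclear ribonucleoprotein gene of neurons, at 619 ± 3.17, 206.5 ± 1.43, 53.8 ± 0.706 and 115.6 ± 2.33 RPKM (SD, n = 2) in 26m OHC, 9m OHC, 26m IHC and 9m IHC, and the most changed was the growth factor gene Igf2 (3.46, a value set by the pseudocount because Igf2 was listed at 0 in 9m OHC). In 26m IHC vs 9m IHC 0 of 14 were called higher and 4 lower, in 9m OHC vs 9m IHC 5 higher and 4 lower, and in 26m OHC vs 26m IHC 9 higher and 1 lower.

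Miat was the only one of the 7 called higher at 26 months under both labels of cell type and in neither comparison of OHC- with IHC-labelled libraries. It measured 10.1, 9.58, 9.59 and 9.57 RPKM in 26m OHC and 3.01, 2.89, 2.89 and 2.92 RPKM in 9m OHC. In the IHC-labelled libraries it measured 7.53, 7.70, 7.12 and 7.26 RPKM at 26 months and 3.25, 3.27, 2.78 and 3.02 RPKM at 9 months. The groups labelled 26 months did not overlap with those labelled 9 months, whereas 9m OHC and 9m IHC overlapped. Miat was called higher in 26m OHC vs 9m OHC (1.70 ± 0.0359, adjusted p = 4.11e-06) and in 26m IHC vs 9m IHC (1.24 ± 0.0679, adjusted p = 3.05e-05, limma). It differed by 0.39 ± 0.0427 in 26m OHC vs 26m IHC (adjusted p = 0.000540), short of the fold threshold, and by -0.07 ± 0.0679 in 9m OHC vs 9m IHC (adjusted p = 0.375). The last value turned to 0.64 and 0.69 under median ratio scaling and quantile normalization. If the labels 26m IHC and 9m OHC were exchanged, both calls of Miat would compare OHCs with IHCs of the same age.

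Snhg11 was second in level after Malat1 in 26m OHC. It measured 107.4, 106.3, 107.1 and 106.0 RPKM in 26m OHC and 17.7, 17.8, 18.6 and 18.4 RPKM in 9m OHC. It measured 19.8, 20.3, 19.8 and 19.97 RPKM in 26m IHC and 2.86, 2.76, 2.81 and 2.83 RPKM in 9m IHC. It was the only one of the 7 called higher in all 4 comparisons, and by similar amounts. The log2 fold changes were 2.55 ± 0.0283 in 26m OHC vs 9m OHC (adjusted p = 2.04e-06), 2.78 ± 0.0316 in 26m IHC vs 9m IHC (adjusted p = 2.21e-07), 2.64 ± 0.0362 in 9m OHC vs 9m IHC (adjusted p = 6.13e-07) and 2.41 ± 0.0224 in 26m OHC vs 26m IHC (adjusted p = 3.18e-07, limma). The 2 middle groups in its order of levels, 26m IHC and 9m OHC, differed by less than the fold threshold (-0.14 for 9m OHC vs 26m IHC, adjusted p = 0.00992).

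Other snoRNA host genes were measured beside Snhg11. Of 21 in the table, 20 were tested, and in 26m OHC vs 9m OHC 3 were called higher and 3 lower, with a median log2 fold change of -0.09. In 26m IHC vs 9m IHC 0 were called in either direction (median 0.08). In OHC- against IHC-labelled libraries 10 were called higher and 3 lower at 9 months and 11 higher and 4 lower at 26 months, among them Gas5 (2.77 and 2.26) and Snhg8 (4.30 and 3.64). Snhg17, which lies 14058 bases from Snhg11, averaged 0.857, 0.481, 0.766 and 0.469 RPKM in 26m OHC, 9m OHC, 26m IHC and 9m IHC and was not called in any of the 4 comparisons.

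**Figure D4:**
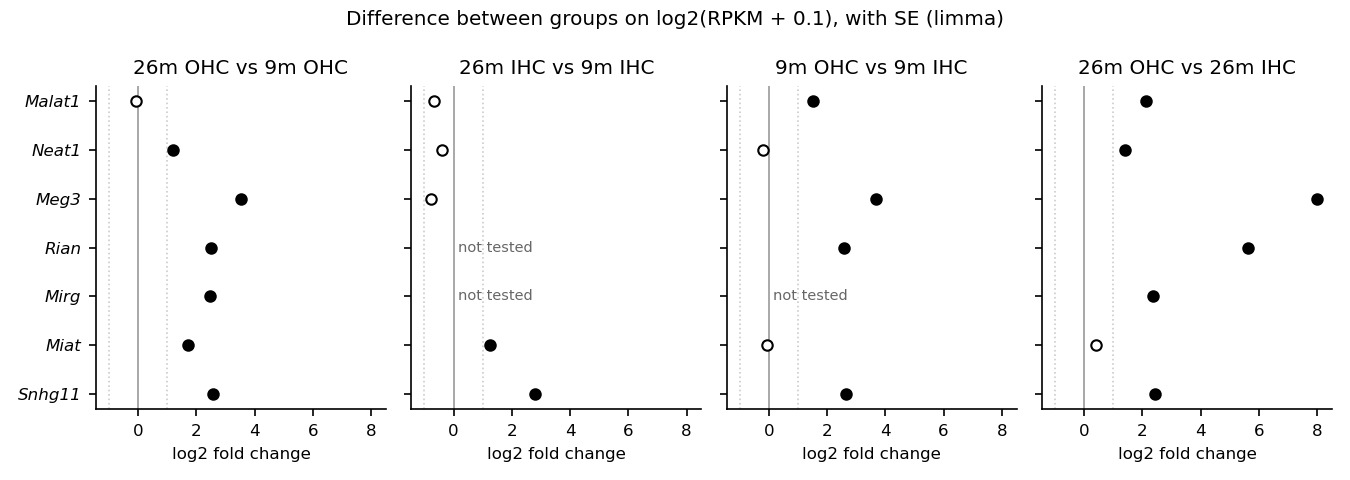
Log2 fold change (RPKM + 0.1) of each lncRNA in 4 comparisons, with bars for the SE of the limma fit (mostly smaller than the points); filled points were called, open points were not, and dotted lines mark a log2 fold change of 1 in either direction. No filled point lies left of 0, and Meg3 in 26m OHC vs 26m IHC is farthest right (8.0016).

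Whether the change with age differed between cell types was tested as an interaction over all 4 groups, the difference of OHC minus IHC at 26 months less that at 9 months. It was called for 4 of the 7 lncRNAs, all higher, where 56.5% of 17056 genes were called, 38.4% higher, and the median of all genes was 0.50. Meg3 (4.33 ± 0.0711, adjusted p = 1.09e-08), Rian (3.04 ± 0.110, adjusted p = 2.46e-07), Mirg (2.37 ± 0.103, adjusted p = 5.95e-07) and Neat1 (1.59 ± 0.0790, adjusted p = 1.21e-06, limma) were the 4. Malat1 (0.59 ± 0.0625), Miat (0.46 ± 0.0838) and Snhg11 (-0.23 ± 0.0368) were not called. Under median ratio scaling Neat1 came to 0.995, just under the fold threshold, and with a pseudocount of 1 Mirg came to 0.53. Mirg entered the interaction through 26m OHC alone, so its direction was set in advance.

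Other known lncRNAs were measured beside these 7. Of 30 in the table, 17 were tested in 26m OHC vs 9m OHC, where 7 were called higher and 2 lower, and 0 higher and 5 lower in 26m IHC vs 9m IHC. In 9m OHC vs 9m IHC 5 were called higher and 4 lower of 17, and in 26m OHC vs 26m IHC 8 higher and 3 lower of 18. Mir124a-1hg, the host of the neuronal miRNA miR-124, averaged 8.45 ± 0.217, 1.40 ± 0.00934, 0.0102 ± 0.0145 and 0.0191 ± 0.00151 RPKM (SD, n = 2) in 26m OHC, 9m OHC, 26m IHC and 9m IHC. The largest change in 26m OHC vs 9m OHC was that of Lncpint (-5.04 ± 0.159, adjusted p = 1.10e-05, limma), a p53-induced lncRNA. Of 11 genes for RNA 3' ends and lncRNA stability, 1 was called higher (Pabpn1, 1.40) and 1 lower (Rpp30, -1.59) among the 9 tested in 26m OHC vs 9m OHC, and in 26m IHC vs 9m IHC 0 higher and 1 lower (Rpp25, a subunit of RNase P, -1.18 with 26m IHC listed at 0) of 11. At 9 months 1 was called higher and 5 lower in OHC- than in IHC-labelled libraries, and at 26 months 0 higher and 3 lower. Of all genes tested, 48.5% were called lower at 9 months and 34.4% at 26 months.

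Protein-coding genes within 100 kb of the lncRNAs were also counted, where 35.6% of all genes tested were called higher in 26m OHC vs 9m OHC, 14.1% in 26m IHC vs 9m IHC and 17.3% in 9m OHC vs 9m IHC. Around Malat1 and Neat1, 3 of 11 tested were called higher and 0 lower in 26m OHC vs 9m OHC. In 9m OHC vs 9m IHC 2 of 11 were called higher and 4 lower, where 48.5% of all genes tested were called lower. Near Miat, 2 of 3 were called higher in 26m OHC vs 9m OHC, among them the lens crystallin gene Crybb1 (4.81, with 9m OHC listed at 0), and 1 of 3 in 26m IHC vs 9m IHC, the sulfotransferase gene Tpst2 (1.17). Near Snhg11, 2 of 2 were called higher in 26m OHC vs 9m OHC, among them Ralgapb (2.09), and 0 of 2 in 26m IHC vs 9m IHC. The 2 protein-coding genes near Meg3, Rian and Mirg are Dlk1 and Rtl1.

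The genes whose pattern over the 8 averaged replicates was most like that of each lncRNA other than Mirg were found by the root mean square difference of centred log2 values, among 13302 annotated genes of 1 RPKM or more in at least 1 group. For Malat1 these were Gnl3l, a nucleolar GTPase gene (0.0730), the transcription repressor gene Mnt (0.0786) and Mkl2, a cofactor of serum response factor (0.0816). For Neat1 they were Naa10 (0.0754), Isy1 (0.0807) and Ankrd26 (0.0863), and for Miat Snx30 (0.0865), Taf1d (0.110) and Rfx3 (0.123). Rian was closest to Elavl3 (0.165), a neuronal RNA-binding protein, B3gat1 (0.206) and Cnnm1 (0.227). Rian averaged 0.0552 RPKM in 9m IHC and 0.00629 in 26m IHC, so its values on this scale rest largely on the pseudocount there. Meg3 had no close match, its nearest being Sapcd1 (0.425), the neuronal surface protein Thy1 (0.504) and the galectin gene Lgals3 (0.564). Snhg11 was closest to Ttr, the thyroxine carrier transthyretin (0.101), Adamts15 (0.124) and the apolipoprotein gene Apod (0.201). No likeness is given for Mirg, whose values on this scale are set by the pseudocount in the groups where it had no reads. With 4 groups behind the 8 points, many genes share any one pattern. Among the lncRNAs other than Mirg, Neat1 and Miat differed least (0.644), followed by Malat1 and Neat1 (0.772) and by Meg3 and Rian (0.950). Of the genes compared, 19.66% were as close to Neat1 as Miat was. The share was 15.31% for Neat1 beside Malat1, and 0.17% for Rian beside Meg3.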

How the data were processed

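RNA was measured by the authors in pools of individually picked inner or outer hair cells, reverse-transcribed with a SMART kit, sequenced as paired reads and mapped with CLC Genomics Workbench (version not given in the sources used here) to GRCm38 (mm10, per the labels). The authors deposited 1 table of RPKM for 49585 genes in 16 libraries; counts, the counting rules and the strand of reads are not given, so overlapping genes cannot be separated. Mapped reads per library and reads per gene were recovered from the RPKM steps and GENCODE vM21 exon lengths. For 15685 of 20986 detected genes (74.74%) the recovered reads were whole to within 0.001 in all libraries. The paper's methods give 2 biological replicates with 2 technical repeats, while the labels number 4 per group, and libraries that agreed within sampling noise over genes of 1000 reads or more were averaged.

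Tests used limma 3.58.1 (lmFit, eBayes with trend) in R 4.3.3 on log2(RPKM + 0.1), on the groups compared only, and over all 4 groups for the interaction. Thresholds are those of the paper's methods. Changes of genes near 0.1 RPKM are understated on this scale. Intervals of read ratios are exact, at a level of 95%, and cover counting error only, and the limit for 0 reads is 3 reads over a group (scipy 1.17.1). On simulated libraries for 26m OHC vs 9m OHC, 100% of 200 genes changed by 1.5 or 2 on log2 were called among 12560 genes, with 0 false calls. Every simulated gene had the same small noise, and the changed genes averaged 1 RPKM or more in 9m OHC. Full recovery without false calls followed from these settings. It is no measure for genes as low as Rian or Mirg in 9m OHC. Sequences were taken from RefSeq (GRCm38.p6) for promoters, where 6 of 7 genes were found, and miRNAs, and from GENCODE vM21 for transcripts. The genes named are the 7 lncRNAs, for each except Mirg the 3 genes of most similar pattern, for each list the most abundant or most changed members, and genes within 100 kb, of which 1 is not reported here. Members of lists named for counts of 5 or fewer were picked after their values were seen. The members and lists were chosen with earlier results of these data known. Alternatives were tried for the pseudocount, filter, scaling, thresholds, model and replicates.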

Additional observations from a re-analysis of the deposited data

Results flagged for a closer look

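In 2 of the groups, 1 library lay apart from the other 3 by Dixon's criterion, which chance meets in about 1 in 20 groups. For Meg3 in 9m IHC, library 1 (0.290 RPKM) lay below the others (0.304, 0.304 and 0.305), with a gap of 0.923 of the range. For Miat in 26m OHC, library 1 (10.1 RPKM) lay above the others (9.57, 9.58 and 9.59), with a gap of 0.953 of the range. Of the 7 lncRNAs in 4 groups, 26 sets of 4 libraries had a range to test.

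The effect of age differed between libraries labelled OHC and IHC for 4 lncRNAs by the interaction in limma over all genes. The difference on the log2 scale was 1.59 for Neat1, 4.33 for Meg3, 3.04 for Rian and 2.37 for Mirg, each past an adjusted p of 0.1, and the libraries labelled 26m OHC were the highest for all 4. The value for Mirg depends on the pseudocount, and its direction was set in advance by the filter.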

How the results depend on the processing

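With a pseudocount of 1, 2286 genes were called in 26m IHC vs 9m IHC, 4197 in 26m OHC vs 9m OHC, 6302 in 9m OHC vs 9m IHC, 6410 in 26m OHC vs 26m IHC and 5761 in the interaction, against 5138, 7367, 10085, 10185 and 9642, and Mirg (0.54, 0.53 and, in the interaction, 0.53) and Rian (0.79 in 9m OHC vs 9m IHC) were not called. A filter at 1 RPKM left 3096 called in 26m IHC vs 9m IHC. By adjusted p alone 13601 genes and 5 lncRNAs were called in 26m IHC vs 9m IHC, 13697 genes in 26m OHC vs 9m OHC, and 15422 genes and 7 lncRNAs in the interaction.

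Signs turned as follows. Under median ratio scaling, Neat1 and Miat in 9m OHC vs 9m IHC came to 0.52 and 0.64, and Malat1 and Miat in the interaction to -0.0068 and -0.12, while Neat1 was no longer called in 26m OHC vs 9m OHC (0.80) or in the interaction (0.995). Under quantile normalization, Malat1 came to 0.43 in 26m OHC vs 9m OHC and -0.0389 (call lost) in 9m OHC vs 9m IHC, where Neat1 and Miat came to 0.57 and 0.69; Neat1 (0.93) lost its call in 26m OHC vs 9m OHC, and Malat1 gained one in 26m IHC vs 9m IHC (-1.41) and in the interaction (1.85). With a pseudocount of 0.01 Meg3 gained one in 26m IHC vs 9m IHC (-1.13). Miat in 9m OHC vs 9m IHC came to 0.0535 without mitochondrially encoded genes and ranged over -0.1494 to 0.0136 when 1 replicate was left out (highest without replicate 1 of 9m IHC), and Snhg11 in the interaction to 0.0392 with a pseudocount of 1. The cause was not tested. Median ratio scaling moved the median of all genes by 0.20 (26m IHC vs 9m IHC), -0.39 (26m OHC vs 9m OHC), 0.73 (9m OHC vs 9m IHC), 0.14 (26m OHC vs 26m IHC) and -0.53 (interaction), and quantile normalization by 0.12, -0.52, 0.87, 0.12 and -0.60. The share of calls that were higher was 71.8% in 26m OHC vs 9m OHC, 26.3% in 9m OHC vs 9m IHC and 68% in the interaction as deposited, 58.8%, 44% and 52.6% under median ratio scaling and 49.8%, 47.9% and 48.9% under quantile normalization.

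Leaving out each averaged replicate in turn gave 5044 to 5087, 7304 to 7346, 9942 to 10045, 10058 to 10078 and 9565 to 9614 genes called in 26m IHC vs 9m IHC, 26m OHC vs 9m OHC, 9m OHC vs 9m IHC, 26m OHC vs 26m IHC and the interaction, and the counts of lncRNAs called, 2, 6, 4, 6 and 4, did not change; the lone replicate is assumed to vary like the others.

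The labels number the libraries alike in each group but do not say that a number marks a batch, and deviations of same-numbered replicates correlated at 0.053 to 0.145 over 11387 genes. With the replicate block, 5150, 7382, 10096, 10197 and 9646 genes were called in those 5 comparisons and no call of a lncRNA changed, nor did one with every library as its own replicate and a block, an alternative chosen after seeing the data. With the length of the longest transcript, none of the 7 lncRNAs kept the same recovered reads. With 2 replicates per group, and few reads for Rian and Mirg, small differences at low levels are not resolved.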
